A study of Homo sapiens with 18 samples.

Results

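The genes of the mitochondrial respiratory chain formed a set of 104 of the 36601 genes listed for each library. They were chosen by name alone. The names began with MT-, NDUFA, NDUFB, NDUFC, NDUFS, NDUFV, UQCR or ATP5, were numbered nuclear COX subunits from COX4 to COX8, or were SDHA, SDHB, SDHC or SDHD. Pseudogenes and the NDUFAF assembly factors were left out. Of the 104 genes, 13 are encoded by mitochondrial DNA, 88 are nuclear and protein-coding, and 3 are non-coding neighbours of nuclear subunit genes (NDUFA6-DT, NDUFB2-AS1 and NDUFV2-AS1). The 88 nuclear genes comprised 37 of complex I, 4 of complex II, 9 of complex III, 19 of complex IV and 19 of complex V. The 13 mitochondrial genes comprised 7 of complex I, 1 of complex III, 3 of complex IV and 2 of complex V.

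RNA was measured by mRNA sequencing in stable cell lines made with lentivirus from the human cholangiocarcinoma (bile duct cancer) lines HuCCT1, YSCCC and KKU-100. In each line, 3 biological replicates carried shRNF213#2, a hairpin against RNF213, and 3 carried shControl. The shRNF213#2 samples are labelled as RNF213 knockdown and the shControl samples as WT, and both arms carry a lentiviral hairpin. RNF213 encodes a very large E3 ubiquitin ligase with an ATPase domain. The series compared the arms in a study of RNF213 and local invasion. The labels give the origin of HuCCT1 as bile duct, of YSCCC as liver and of KKU-100 as biliary tract. HuCCT1 and YSCCC grew in RPMI-1640 medium and KKU-100 in Ham's F12, so that KKU-100 differed from the others in line and medium together. Only 1 hairpin against RNF213 was present in these libraries.

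The respiratory chain passes electrons from NADH and succinate to oxygen through complexes I to IV in the inner mitochondrial membrane, and complex V, the ATP synthase, uses the resulting proton gradient to make ATP. Complexes I, III, IV and V are built from products of both genomes, while the succinate dehydrogenase of complex II is wholly nuclear. The mitochondrial genes are transcribed from mitochondrial DNA as long RNAs that are then cut into single messages, whereas each nuclear gene has a promoter of its own, many of which are known to bind NRF1, ETS-family factors or YY1.

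The libraries held 21056732 to 25502097 counts. Mitochondrial members took 1.61 to 2.76% of a library's counts and nuclear members 0.62 to 0.904%. Of 10 cholangiocyte and epithelial markers, 4, among them KRT19 and EPCAM, were under 1 CPM (counts scaled to library size by trimmed means) in every KKU-100 library, against 0 of 10 in HuCCT1 and 1 of 10 in YSCCC. The summed level of these markers was 876 to 1340 CPM in shRNF213#2 and 1150 to 1460 CPM in shControl libraries of KKU-100, where HuCCT1 and YSCCC libraries lay at 5660 CPM or above. Some libraries stood apart within their line. In HuCCT1, interferon-stimulated genes summed to 13146 CPM in shRNF213#2 replicate 2 and 13605 CPM in shControl replicate 2, and the other HuCCT1 libraries did not exceed 2534 CPM. In YSCCC, endoplasmic reticulum chaperones summed to 9738 CPM in shRNF213#2 replicate 3 and 11658 CPM in shControl replicate 3, and the other YSCCC libraries did not exceed 7439.9 CPM. Markers of other cell types were among the genes called in YSCCC with the block described below, where 8.25% of all genes were called. Of 7 stromal markers tested, 1 was called higher, POSTN (log2 1.44), and 3 lower, COL3A1 (-1.17), THY1 (-0.90) and COL1A1 (-0.61). The stromal sum was 102 to 641 CPM in shRNF213#2 and 102 to 347 CPM in shControl. Of 3 endothelial markers tested, PECAM1 (1.12) and CDH5 (0.58) were called higher, and their list summed to 29.1 to 98.7 CPM in shRNF213#2 and 15.3 to 77.8 CPM in shControl. The hepatocyte marker SERPINA1 was called higher (0.99), and the epithelial marker CDH1 (-0.57) and the immune marker CSF1R (-1.12) lower. The part of these markers in the results was not tested. In the same YSCCC libraries 6 of 8 endothelial markers stayed under 1 CPM. Libraries with the same replicate number deviated together in all 9 pairs, so each test was run both unpaired and with that number as a block.

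RNF213 itself was lower with the hairpin in every pair. In HuCCT1 it had 277, 423 and 284 CPM in shRNF213#2 replicates 1, 2 and 3, against 395, 1261 and 429.9 CPM in shControl. In YSCCC it had 152, 237 and 215 CPM in shRNF213#2, against 429.96, 382 and 529 CPM in shControl. In KKU-100 it had 568, 651 and 556 CPM in shRNF213#2, against 1259.5, 1003.5 and 1227 CPM in shControl. The arms were apart in YSCCC and KKU-100 and overlapped in HuCCT1, where shControl replicate 2 was the highest of the 6 libraries. The log2 fold change was -1.08 in HuCCT1, -1.15 in YSCCC and -0.98 in KKU-100 without the block (edgeR quasi-likelihood test, adjusted p 1.00, 0.883 and 0.362). With the block it was -0.89, -1.16 and -0.97 (adjusted p 0.136, 0.000307 and 0.0462). Without shControl replicate 2 the HuCCT1 value was -0.33. The exact two-sided permutation test gave p = 0.2 in HuCCT1 and 0.1 in YSCCC and KKU-100, and 0.1 is the smallest p that 3 against 3 libraries allow.

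With shRNF213#2, nuclear respiratory chain messages lay slightly above shControl as a group in HuCCT1 and, less widely, in YSCCC, while few single genes passed a test. The YSCCC shift shrank without replicate 1, and in KKU-100 the direction depended on the replicate pairs left in, as given below. In HuCCT1, 78 of 82 nuclear members tested had a positive log2 fold change with a median of 0.17, against 49.7% of all genes tested. In YSCCC, 67 of 84 were positive with a median of 0.09, against 51.1% of all genes. In KKU-100, 54 of 81 were positive with a median of 0.05, against 49.1% of all genes. For the mean over the 3 lines, 79 of 84 were positive with a median of 0.10, against 50% of all genes. These counts describe fitted values of every member that passed the filter on low counts, and a positive value is not a call. Members shifted together with single replicate pairs, so they are not separate observations of the hairpin. In bulk samples, fewer cells with a message and less of it per cell cannot be told apart.

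The number of calls was small. Without the block, the edgeR test at an adjusted p of 0.05 called 0 members in HuCCT1 (0% of 15747 genes tested were called), 0 in YSCCC (0% of 16932) and 0 in KKU-100 (0.0134% of 14915). It called 1 member over the mean of the lines, COX4I1 (0.146% of 19143 genes). With the block it called 0 members in HuCCT1 (0.14% of genes), 5 in YSCCC (8.25%), 0 in KKU-100 (0.443%) and 4 over the mean (2.9%). The 5 members in YSCCC were among 84 nuclear and 13 mitochondrial members tested, a share below the background of 8.25%. An unadjusted p under 0.05 without the block was reached in HuCCT1 by 6 nuclear members, all higher, in YSCCC by 5 of which 4 were higher, and in KKU-100 by 2 of which 1 was higher. Of all genes, 2.46%, 4.74% and 6.48% reached it in these lines. With the block these counts were 27 of 82 in HuCCT1 (26 higher), against 11.1% of all genes, 14 of 84 in YSCCC (13 higher), against 22.9%, and 4 of 81 in KKU-100 (3 higher), against 16%. In the blocked fit the share of members was thus above that of all genes in HuCCT1 and below it in YSCCC and KKU-100. Without the block it was above that of all genes in HuCCT1 and slightly so in YSCCC, and below it in KKU-100. For the mean over lines, 11 of 84 nuclear members reached it without the block (5.55% of genes) and 24 with it (17%). DESeq2 without the block called COX6B1 in HuCCT1 (0.197% of genes), COX4I1 in YSCCC (0.573%) and 0 members in KKU-100 (0.657%), and limma-voom called 0 members in each line (0%, 0% and 0.0134%). All p-values measure the spread between these samples, for which separate cultures are not described further.

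Summed levels, built from the same values, gave no clear order of HuCCT1 and YSCCC. The mean log2 change over pairs was 0.14 (SD 0.06) in HuCCT1, 0.13 (SD 0.09) in YSCCC and 0.07 (SD 0.19) in KKU-100 (n = 3 pairs each). The nuclear members summed to 8003, 8709.9 and 7912 CPM in shRNF213#2 replicates 1, 2 and 3 of HuCCT1, against 7414, 7510.3 and 7356 CPM in shControl. All 3 shRNF213#2 libraries of HuCCT1 were above all 3 shControl libraries, with means of 8208 ± 437 CPM and 7427 ± 77.9 CPM (SD, n = 3 each), a difference of 10.5%. In YSCCC the sums were 8697, 8353 and 6774 CPM in shRNF213#2, against 7401, 7819 and 6495 CPM in shControl. The YSCCC arms overlapped, replicate 3 was the lowest of each arm, and shRNF213#2 was higher in 3 of 3 pairs with a mean 9.71% above that of shControl. In KKU-100 the sums were 7350.3, 6533 and 7567 CPM in shRNF213#2, against 6895, 7192 and 6392 CPM in shControl. Here the arms overlapped and shRNF213#2 was higher in 2 of 3 pairs, replicate 2 being lower.

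**Figure D1:**
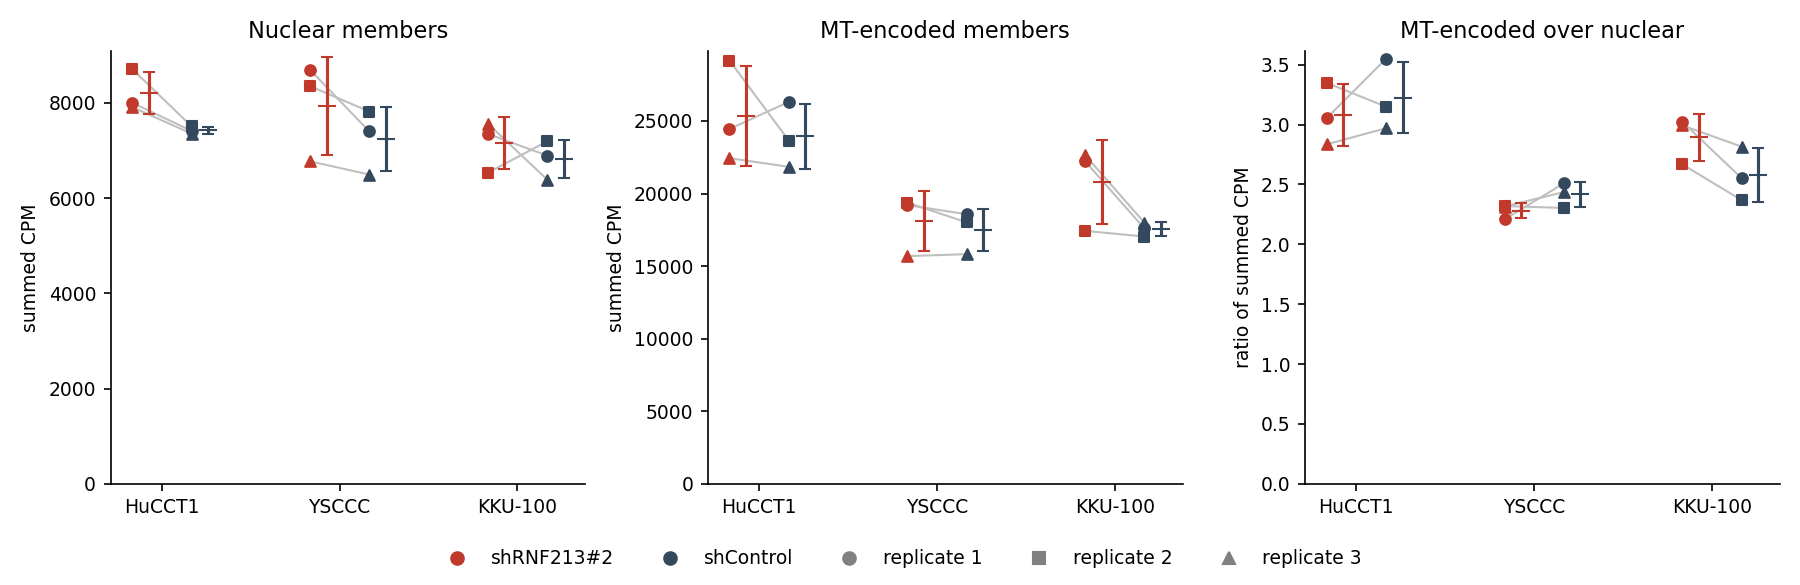
Summed CPM of the nuclear members, of the mitochondrial members and the mitochondrial to nuclear ratio in each library (points, vertical axes), by line with shRNF213#2 left of shControl (horizontal axes); grey lines join libraries of the same replicate number, and bars give the mean ± SD of each arm. The nuclear sums of the 3 HuCCT1 shRNF213#2 libraries, 7912 CPM or higher, lie above those of shControl, 7510.3 CPM or lower, and the mitochondrial to nuclear ratio is higher with shRNF213#2 in 3 of 3 KKU-100 pairs.

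Counting members whose 3 shRNF213#2 libraries all lay above the 3 shControl libraries gave 34 of 82 in HuCCT1, against 4.76% of all genes tested. The same count was 10 of 84 in YSCCC, against 5.52% of genes, and 3 of 81 in KKU-100, against 5.75%. The 10 in YSCCC included ATP5PO, COX4I1, COX6B1, COX7A2, NDUFB5, NDUFV1 and SDHB, and the 3 in KKU-100 were ATP5F1A, ATP5IF1 and UQCRC2. Wholly below shControl lay 1 of 82 members in HuCCT1 (3.77% of genes), 1 of 84 in YSCCC (5.17%) and 2 of 81 in KKU-100 (6.79%). SDHD was that 1 member in HuCCT1 and YSCCC, and SDHD and ATP5MPL were the 2 in KKU-100. Members higher in 3 of 3 pairs numbered 63 of 82 in HuCCT1 (18.2% of genes), 31 of 84 in YSCCC (22.6%) and 8 of 81 in KKU-100 (19.7%).

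In HuCCT1, positive values were found for 36 of 37 complex I genes, 3 of 4 complex II genes, 9 of 9 complex III genes, 13 of 14 complex IV genes and 17 of 18 complex V genes, with medians between 0.10 and 0.18 on the log2 scale. The sums of complexes I, III, IV and V were each higher in all 3 HuCCT1 shRNF213#2 libraries than in any shControl library. The complex IV sum was 1455 ± 155 CPM in shRNF213#2 and 1248 ± 38.7 CPM in shControl (SD, n = 3 each), a difference of 16.6%. In YSCCC the complex I genes (33 of 37) and complex V genes (15 of 18) were mostly positive, while complexes II, III and IV stood at 2 of 4, 6 of 9 and 11 of 16. The YSCCC complex IV sum was 18.1% higher, in 3 of 3 pairs, with 1590.3 ± 186 CPM in shRNF213#2 and 1346 ± 78.2 CPM in shControl (SD, n = 3 each). This was not an even shift of the complex. COX4I1 and COX6B1 had the largest log2 ratios of means among its members tested, 0.87 and 0.63, followed by COX7A2 with 0.28. COX5B, COX6A1 and COX8A had 0.004, -0.01 and -0.03. In KKU-100, complex I had 26 of 37 positive, complex II 3 of 4, complex III 7 of 9, complex IV 8 of 13 and complex V 10 of 18, with a median of 0.02 in complex V.

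**Figure D2:**
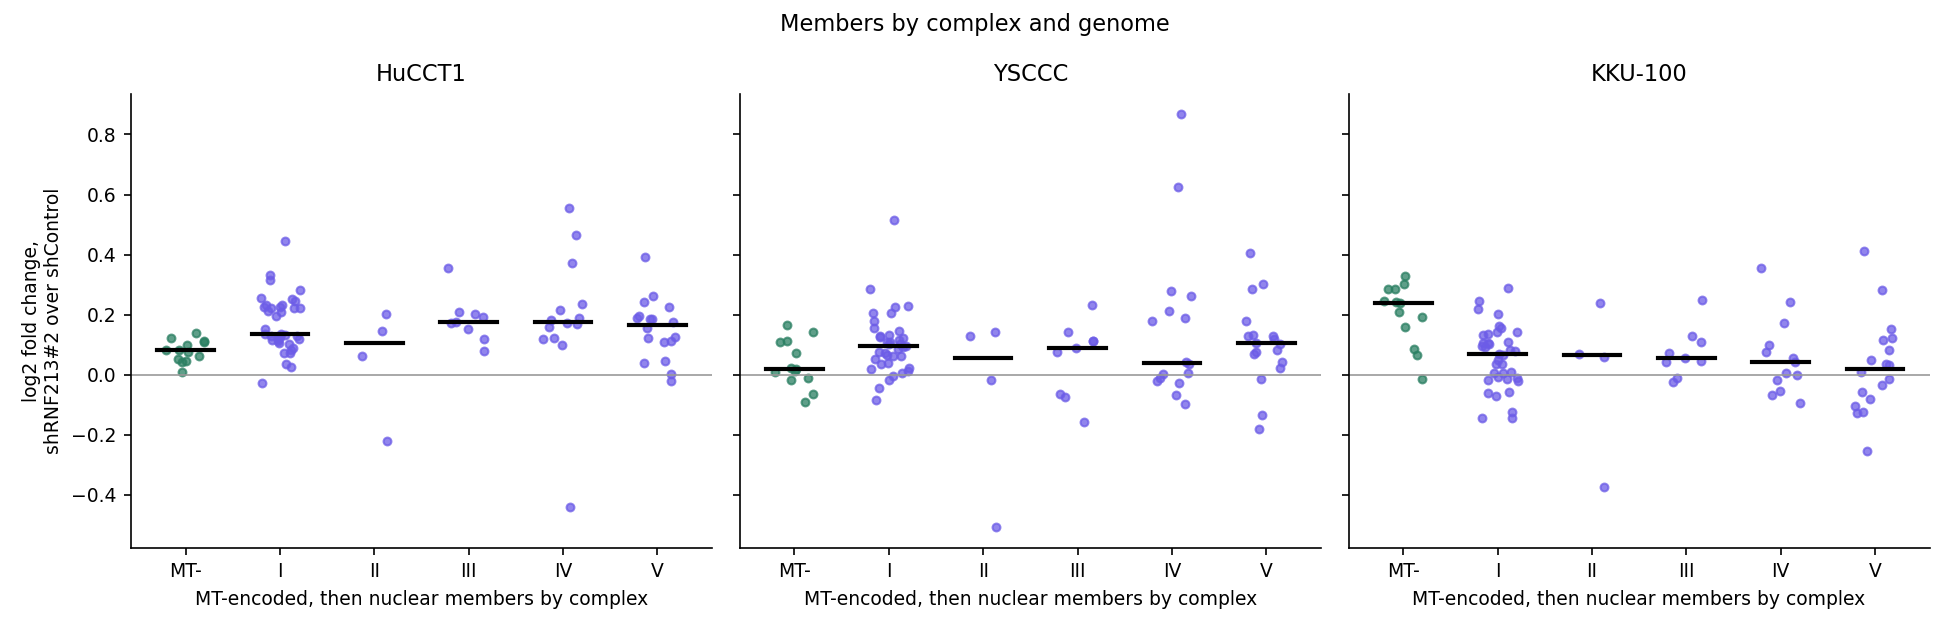
Log2 fold change of shRNF213#2 over shControl without the block (vertical axis) for each member tested, in a panel per line, with mitochondrial members first and nuclear members by complex (horizontal axis); black bars are medians. In HuCCT1 78 of 82 nuclear points lie above 0, and in KKU-100 the mitochondrial median of 0.24 is above the nuclear medians.

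The HuCCT1 shift stood beside like values in other gene lists and moved with single replicate pairs. In HuCCT1, 68 of 77 mitochondrial ribosome genes and 28 of 30 cytosolic ribosomal proteins of the small subunit also had positive values, with medians of 0.11 and 0.09; their part in the result was not tested. With the block and without HuCCT1 replicate 2, 75 of 82 nuclear members were positive with a median of 0.11, and 44 of 82 lay wholly above shControl, against 12% of all genes. That count was 50 of 82 without replicate 1 (13.8% of genes) and 55 of 82 without replicate 3 (14.6%). In YSCCC, 51 of 84 were positive without replicate 1 (median 0.04) and 69 of 84 without replicate 3 (median 0.10). Without YSCCC replicate 3, 41 of 84 lay wholly above shControl, against 24.4% of all genes, and 21 of 84 did without replicate 2 (11.4%). Without YSCCC replicate 1 only 11 of 84 did, against 11.5% of all genes. In KKU-100 the direction itself depended on the pairs left in. Without replicate 3, 32 of 81 were positive with a median of -0.04, and without replicate 2, 71 of 81 were positive with a median of 0.16. The count wholly above shControl in KKU-100 was 6 of 81 without replicate 1 (16.1% of genes) and 30 of 81 without replicate 2 (18.2%). Without replicate 3, 5 of 81 lay wholly above shControl (14.1% of genes) and 17 of 81 wholly below it (14.7%).

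COX4I1, COX6B1, NDUFB5, ATP5PO and SDHD were the members called in YSCCC with the block. The 250 bases before the RefSeq start of 4 of them (GRCh38.p14) are shown as promoter windows of messages that passed a test. In COX4I1 this window lies inside the deposited gene bounds, which start at chr16:85798633. The SDHD and ATP5PO windows run partly into the deposited bounds of these genes, which start at chr11:112086824 and, on the minus strand, at chr21:33915814. NDUFB5 is named only. Capitals mark matches to GCGC, any base and TGCGC, the letters searched for NRF1, and to CCGGAAG or its reverse complement, the letters searched for ETS-family factors.
COX4I1, chr16:85799445-85799694, plus strand: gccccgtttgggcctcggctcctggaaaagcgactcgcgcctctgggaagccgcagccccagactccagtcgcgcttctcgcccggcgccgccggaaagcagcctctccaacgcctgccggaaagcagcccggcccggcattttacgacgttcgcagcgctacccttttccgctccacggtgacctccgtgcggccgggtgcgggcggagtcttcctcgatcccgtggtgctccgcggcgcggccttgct
COX6B1, chr19:35648073-35648322, plus strand: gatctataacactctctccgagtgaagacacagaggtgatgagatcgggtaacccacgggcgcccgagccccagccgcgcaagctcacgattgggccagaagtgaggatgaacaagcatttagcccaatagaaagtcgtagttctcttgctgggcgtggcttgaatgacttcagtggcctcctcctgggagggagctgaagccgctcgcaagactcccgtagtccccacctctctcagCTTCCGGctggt
ATP5PO, chr21:33915805-33916054, minus strand: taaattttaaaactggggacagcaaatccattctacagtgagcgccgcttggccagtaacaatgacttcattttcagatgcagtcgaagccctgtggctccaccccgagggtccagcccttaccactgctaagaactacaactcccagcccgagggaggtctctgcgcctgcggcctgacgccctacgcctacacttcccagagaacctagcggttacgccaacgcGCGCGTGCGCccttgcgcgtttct
SDHD, chr11:112086623-112086872, plus strand: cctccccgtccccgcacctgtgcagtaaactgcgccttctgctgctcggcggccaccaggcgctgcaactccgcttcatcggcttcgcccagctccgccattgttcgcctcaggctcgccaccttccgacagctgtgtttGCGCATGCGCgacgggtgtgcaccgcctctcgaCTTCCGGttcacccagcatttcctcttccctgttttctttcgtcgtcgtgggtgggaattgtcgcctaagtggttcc

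The NRF1 letters began 24 bases before the start in ATP5PO and 110 bases before it in SDHD, which also held the ETS letters at 77 bases. In COX6B1 the ETS letters began 12 bases before the start, and in COX4I1 the 250 bases held neither. Of the 88 nuclear members, 68 had a RefSeq window of 300 bases, from 250 before to 50 after the start. On either strand, the NRF1 letters were in 16 of these 68 windows (23.5%), against 1716 of all 27305 windows (6.28%). The ETS letters were in 19 of 68 (27.9%), against 10.7% of all windows, and AAGATGGCG, the letters searched for YY1, in 8 of 68 (11.8%), against 1.85%. COX4I1 held 1 match to the ETS letters in this longer window, not wholly within the 250 bases shown. The ETS and YY1 letters can share bases. A match is a description of the letters and not a measured site, and the member that fell, SDHD, and members that rose both held matches.

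COX4I1, the widely expressed form of cytochrome c oxidase subunit 4 (ENSG00000131143, chr16:85798633-85807054 on the plus strand of GRCh38), was higher with shRNF213#2 and had the lowest adjusted p of the members. In YSCCC it had 325, 315 and 242 CPM in shRNF213#2 replicates 1, 2 and 3, against 158, 165 and 159 CPM in shControl. The arms were far apart, with means of 294 ± 45.3 CPM and 161 ± 3.97 CPM (SD, n = 3 each). In HuCCT1 it had 215, 241 and 196 CPM in shRNF213#2, against 171, 185 and 147 CPM in shControl, again without overlap. KKU-100 had 183, 169.8 and 212 CPM in shRNF213#2, against 129, 182 and 165 CPM in shControl, where the arms overlapped and replicate 2 was lower. The log2 fold change in YSCCC was 0.86 ± 0.10 (SE) with the block (edgeR adjusted p = 0.000415) and 0.87 ± 0.14 without it (adjusted p = 0.883). In HuCCT1 it was 0.37 with the block (adjusted p = 0.151) and in KKU-100 0.25 (adjusted p = 0.41). Over the mean of the lines COX4I1 rose by 0.50 ± 0.09 without the block (adjusted p = 0.0365) and 0.49 ± 0.07 with it (adjusted p = 0.00154). Leaving out single pairs kept the blocked call in YSCCC in 3 of 3 fits and over the mean in 9 of 9. Without the block, the mean stayed called in 4 of 18 fits that left out 1 library, with a highest adjusted p of 0.114.

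COX4I1 shares bases with EMC8 on the opposite strand, and neither labels nor files say whether reads were counted by strand; reads of the shared stretch cannot be told apart. EMC8, a subunit of a membrane protein insertion complex, had 45.0 ± 6.90 CPM in shRNF213#2 and 48.1 ± 2.37 CPM in shControl of YSCCC (SD, n = 3 each). Its log2 fold change there was -0.11 (edgeR adjusted p = 0.632 with the block).

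COX6B1, a subunit of cytochrome c oxidase on the intermembrane space side (ENSG00000126267, chr19:35648323-35658782, plus strand), was higher in HuCCT1 and YSCCC and level in KKU-100. In HuCCT1 it had 102, 107 and 88.7 CPM in shRNF213#2, against 70.6, 63.7 and 68.2 CPM in shControl. In YSCCC it had 137, 136 and 91.1 CPM in shRNF213#2, against 82.8, 85.6 and 67.5 CPM in shControl. Neither line had overlapping arms, and YSCCC replicate 3 was the lowest of each arm. Levels in KKU-100 were 105, 107 and 130.3 CPM in shRNF213#2, against 101, 125 and 114 CPM in shControl, and the arms overlapped. With the block the log2 fold change was 0.61 ± 0.10 in YSCCC (SE, edgeR adjusted p = 0.00254), 0.55 ± 0.09 in HuCCT1 (adjusted p = 0.0748) and 0.0049 in KKU-100 (adjusted p = 0.99). Over the mean of the lines COX6B1 rose by 0.39 ± 0.06 with the block (adjusted p = 0.00452), and the value was 0.40 without it (adjusted p = 0.156). The YSCCC call was lost without replicate 1 (adjusted p = 0.0592). In HuCCT1 a call appeared when replicate 2 or replicate 3 was left out (2 of 3 fits, lowest adjusted p = 0.00218).

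NDUFB5, an accessory subunit of the membrane arm of complex I (ENSG00000136521, chr3:179604690-179627647, plus strand), followed the same pattern over the lines. In YSCCC it had 149, 147 and 112 CPM in shRNF213#2, against 92.9, 104 and 88.3 CPM in shControl. In HuCCT1 it had 80.2, 83.5 and 66.4 CPM in shRNF213#2, against 55.6, 54.6 and 58.7 CPM in shControl. The arms did not overlap in either line, with replicate 3 the lowest of the shRNF213#2 libraries. KKU-100 levels were 59.3, 55.8 and 64.0 CPM in shRNF213#2, against 55.1, 62.4 and 60.3 CPM in shControl, which overlapped. The log2 fold change with the block was 0.51 ± 0.10 in YSCCC (SE, edgeR adjusted p = 0.00712), 0.44 in HuCCT1 (adjusted p = 0.182) and 0.01 in KKU-100 (adjusted p = 0.981). Over the mean it rose by 0.32 ± 0.06 with the block (adjusted p = 0.0141), against an adjusted p of 0.159 without it. The YSCCC call was lost without replicate 1 (adjusted p = 0.12). The mean was called in 6 of 9 fits that left out a pair, and lost without HuCCT1 replicate 1 or 2 or YSCCC replicate 1 (adjusted p 0.0513 to 0.0567).

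ATP5PO, the stalk subunit of the ATP synthase also known as OSCP (ENSG00000241837, chr21:33903453-33915814, minus strand), was called in YSCCC. There it had 123, 126 and 110.1 CPM in shRNF213#2, against 87.2, 98.0 and 86.1 CPM in shControl, without overlap. In HuCCT1 it had 102, 117 and 91.2 CPM in shRNF213#2, against 96.0, 92.6 and 95.8 CPM in shControl. In KKU-100 the levels were 80.2, 66.2 and 89.1 CPM in shRNF213#2, against 82.1, 85.8 and 84.8 CPM in shControl. Both of these lines had overlapping arms. In YSCCC ATP5PO rose by 0.40 ± 0.09 with the block (SE, edgeR adjusted p = 0.0167), and the call was lost without replicate 1 or replicate 2 (adjusted p 0.0697 to 0.183). Without the block the adjusted p was 0.921. The gene shares bases with LINC00649, which had 13.2 ± 1.35 CPM in shRNF213#2 and 10.5 ± 0.63 CPM in shControl of YSCCC (SD, n = 3 each). The log2 fold change of LINC00649 there was 0.32 (edgeR adjusted p = 0.193 with the block). Reads of the stretch shared with ATP5PO cannot be told apart either.

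SDHD was the one member that was lower throughout. It encodes the small membrane anchor of succinate dehydrogenase, complex II (ENSG00000204370, chr11:112086824-112120016, plus strand). In HuCCT1 it had 121, 123 and 137 CPM in shRNF213#2, against 157, 142 and 145 CPM in shControl. In YSCCC it had 90.7, 73.0 and 65.5 CPM in shRNF213#2, against 109, 123 and 93.5 CPM in shControl. In KKU-100 it had 59.9, 55.0 and 50.9 CPM in shRNF213#2, against 68.8, 77.4 and 68.1 CPM in shControl. Every shRNF213#2 library was below every shControl library of its line, in all 3 lines. With the block SDHD fell by 0.51 in YSCCC (log2, SE 0.11, edgeR adjusted p = 0.0108), and the values were -0.22 in HuCCT1 (adjusted p = 0.41) and -0.37 in KKU-100 (adjusted p = 0.187). Over the mean it fell by 0.37 (SE 0.06, adjusted p = 0.00609), and this held in 9 of 9 fits that left out a pair. Without the block the adjusted p over the mean was 0.118, and without YSCCC replicate 2 the YSCCC call was lost (adjusted p = 0.0906). In HuCCT1 and KKU-100, 3 of 4 complex II genes were positive, SDHD being the exception, and in YSCCC SDHB lay wholly above shControl.

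**Figure D3:**
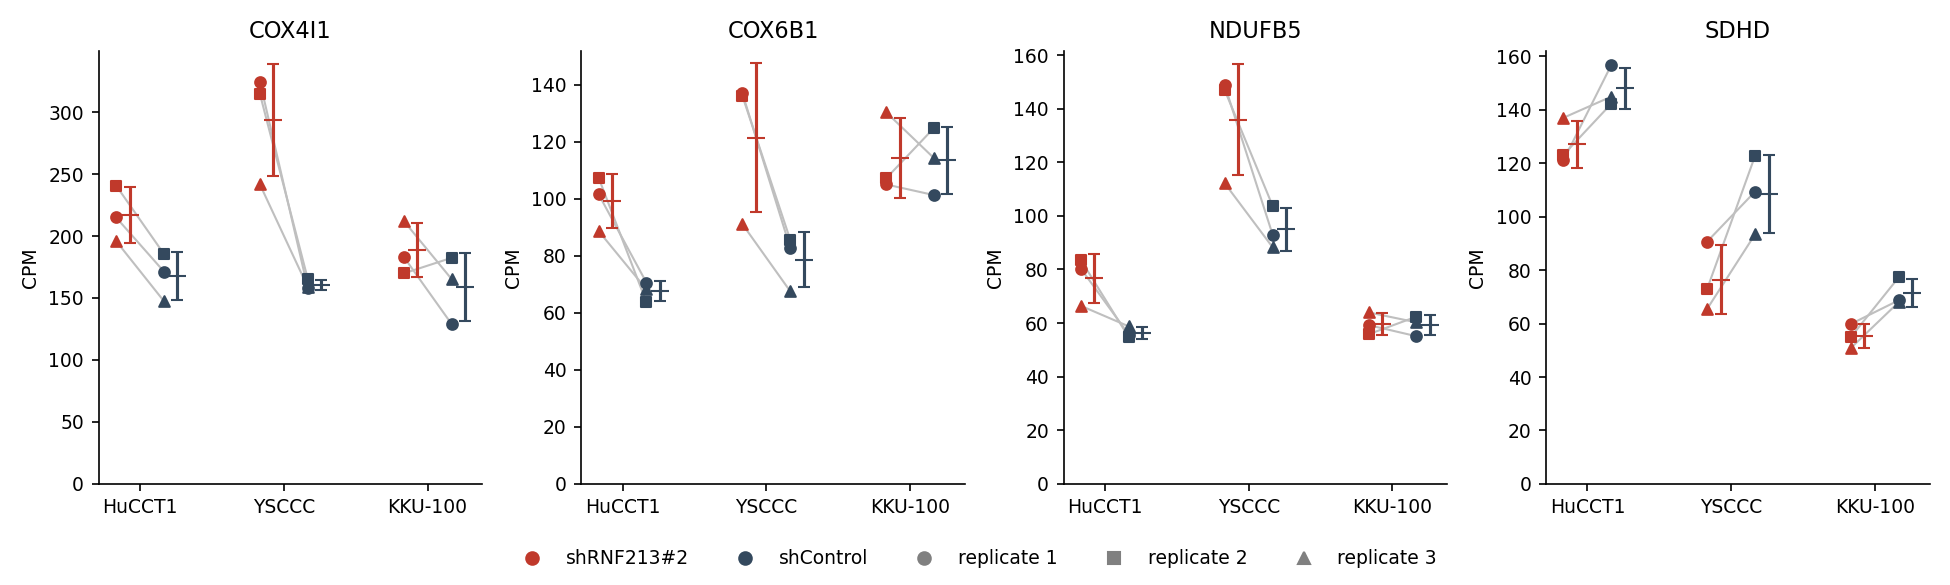
CPM of COX4I1, COX6B1, NDUFB5 and SDHD in each library (vertical axes), by line with shRNF213#2 left of shControl (horizontal axes); grey lines join libraries of the same replicate number, and bars give the mean ± SD of each arm. COX4I1 reaches 242 CPM or more in the 3 YSCCC shRNF213#2 libraries, against 165 CPM or less in shControl, and SDHD is lower with shRNF213#2 in 9 of 9 pairs.

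Members with the lowest p in KKU-100 did not pass the test. ATP5IF1, the natural inhibitor of the ATP synthase, had 44.2, 42.0 and 47.0 CPM in shRNF213#2, against 27.6, 37.4 and 34.9 CPM in shControl, without overlap (log2 0.42 ± 0.13 with the block, edgeR adjusted p = 0.197). UQCRC2, a core subunit of complex III, had 189, 202 and 186 CPM in shRNF213#2, against 152, 184 and 148 CPM in shControl, also without overlap (log2 0.25, adjusted p = 0.305). ATP5MPL, a small membrane subunit of the synthase, had 66.1, 64.6 and 75.4 CPM in shRNF213#2, against 82.2, 85.0 and 78.4 CPM in shControl (log2 -0.26, adjusted p = 0.319). NDUFS1, the largest iron-sulphur subunit of complex I, had a log2 value of 0.25 (adjusted p = 0.308), and ATP5MD had -0.12 (adjusted p = 0.614). In HuCCT1 the members below shControl beside SDHD with the lowest p were NDUFA4L2 (log2 -0.44, adjusted p = 0.542) and NDUFS1 (log2 -0.03, adjusted p = 0.898), both with the block.

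Differences in the hairpin effect between lines were tested on all 18 libraries. The edgeR test called 0 members for any of the 3 line pairs without the block, where 0% of genes were called in each. With the block it also called 0 members, against 0.047% of genes for HuCCT1 minus YSCCC, 0.235% for HuCCT1 minus KKU-100 and 2.63% for YSCCC minus KKU-100. For YSCCC minus KKU-100, 5 of 84 nuclear members without the block had an unadjusted p under 0.05, against 5.79% of all genes, and 6 of 84 with it, against 18.2%. DESeq2 with the block called 3 members for that pair (5.54% of genes), namely COX6B1, COX4I1 and ATP5PO. In edgeR with the block, the YSCCC effect exceeded the KKU-100 effect by 0.60 ± 0.15 in COX6B1 (SE, adjusted p = 0.0509), 0.60 ± 0.17 in COX4I1 (adjusted p = 0.0694), 0.52 ± 0.15 in ATP5PO (adjusted p = 0.0815) and 0.50 ± 0.15 in NDUFB5 (adjusted p = 0.0925) on the log2 scale. The HuCCT1 effect on COX6B1 exceeded that in KKU-100 by 0.55 (adjusted p = 0.157), and that on COX4I1 was 0.49 below the YSCCC effect (-0.49, adjusted p = 0.371). A line difference of the hairpin effect was therefore not established for any member by the edgeR test.

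The mitochondrial messages had positive fitted values in 13 of 13 members over the mean of the lines (median log2 0.11), where nuclear members had a median of 0.10. Of the 3 lines their median was highest in KKU-100, and no test was run between the mitochondrial and nuclear members as groups. Lengths and overlaps bear on how these messages can be counted, so the longest shared stretch of protein-coding genes in the mitochondrial genome is shown, with the shared bases in capitals and 10 flanking bases on each side (GRCh38).
MT-ATP8 and MT-ATP6, chrM:8517-8582, plus strand: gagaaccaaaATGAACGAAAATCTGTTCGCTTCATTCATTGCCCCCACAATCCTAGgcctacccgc
The shared stretch, chrM:8527-8572, is 46 bases and makes up 22.2% of the 207 bases of MT-ATP8. MT-ND4L and MT-ND4 share 7 bases. Reads inside a shared stretch cannot be given to 1 gene, and MT-ATP8 had 0.29 counts per deposited TPM and MT-ND4L 1.20, against a median of 9.04 among nuclear members.

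In KKU-100 the mitochondrial members summed to 22224, 17428 and 22646 CPM in shRNF213#2 replicates 1, 2 and 3, against 17597, 17038 and 17997 CPM in shControl. Replicates 1 and 3 with shRNF213#2 were above every shControl library and replicate 2 was within their range, so that the sum was higher in 3 of 3 pairs with a mean 18.4% above that of shControl and overlapping arms. In HuCCT1 the sums were 24444, 29161 and 22433 CPM in shRNF213#2, against 26312, 23651 and 21840.0 CPM in shControl. In YSCCC they were 19204, 19376 and 15688 CPM in shRNF213#2, against 18571, 18014 and 15823 CPM in shControl. Both lines had overlapping arms and were higher in 2 of 3 pairs. Among fitted values, 12 of 13 mitochondrial members were positive in KKU-100 (median log2 0.24), 13 of 13 in HuCCT1 (0.08) and 9 of 13 in YSCCC (0.02). Without HuCCT1 replicate 2, 3 of 13 were positive in HuCCT1 with a median of -0.04 in the blocked fit. Beside the KKU-100 values, interferon-stimulated genes summed to 13427 to 16397 CPM in shRNF213#2, against 15779 to 22151 CPM in shControl, with IFIT2 (log2 -1.41), RSAD2 (-1.24) and OASL (-0.996) called lower with the block, and their part was not tested. In KKU-100 13 of 13 were positive without replicate 1 or replicate 2 and 11 of 13 without replicate 3.

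The edgeR test called 0 of 13 mitochondrial members in any line, with or without the block. The count with an unadjusted p under 0.05 was 0 in each line without the block, and with it 1 in KKU-100 and 0 in HuCCT1 and YSCCC, beside the shares of all genes given above. Over the mean of the lines 5 of 13 had an unadjusted p under 0.05 with the block, against 17% of all genes, and 0 without it, against 5.55%; the lowest adjusted p was 0.136, in MT-CO1.

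Single genes are given in the order of the complexes. MT-ND5, a proton-pumping subunit of complex I, had 2022, 1687 and 1936 CPM in shRNF213#2 of KKU-100, against 1654, 1416 and 1409.6 CPM in shControl. All 3 shRNF213#2 libraries were higher than all shControl ones (log2 0.33 ± 0.13 with the block, adjusted p = 0.269). MT-ND6 is the only one of the 13 encoded on the opposite strand of mitochondrial DNA. It had 482, 372 and 435 CPM in shRNF213#2 of KKU-100, against 371, 366 and 349 CPM in shControl, just without overlap. Its bounds, chrM:14149-14673, begin right after those of MT-ND5, which end at 14148. Whether reads were counted by strand is not given, so reads running past MT-ND5 cannot be told from MT-ND6. MT-ND5 and MT-ND6 may therefore not be separate counts. The other complex I genes of KKU-100 overlapped between arms, with log2 ratios of means between 0.07 in MT-ND1 and 0.25 in MT-ND4. MT-CYB, the mitochondrial subunit of complex III, had 1795, 1473 and 1861 CPM in shRNF213#2 of KKU-100, against 1493, 1400.3 and 1447 CPM in shControl. It was higher in 3 of 3 pairs with overlapping arms.

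MT-CO1, the catalytic subunit of complex IV, was the one mitochondrial gene without overlap in YSCCC, with 2936, 3143 and 2855 CPM in shRNF213#2, against 2700.3, 2823 and 2753 CPM in shControl. The shift was small there, at a log2 ratio of means of 0.11. In KKU-100 it had 5926, 4375 and 6129 CPM in shRNF213#2, against 4298, 4191 and 4936 CPM in shControl, higher in 3 of 3 pairs with overlap. MT-CO2 and MT-CO3 were higher in 3 of 3 YSCCC pairs, and in HuCCT1 no mitochondrial gene was higher in 3 of 3 pairs. MT-ATP6, the proton channel subunit of the ATP synthase, had 784, 629 and 812 CPM in shRNF213#2 of KKU-100, against 612, 604 and 585 CPM in shControl. Its arms did not overlap (log2 0.30 with the block, adjusted p = 0.314). MT-ATP8 and MT-ND4L were each higher in 1 of 3 KKU-100 pairs. Mitochondrial members wholly above shControl numbered 3 in KKU-100 (MT-ATP6, MT-ND5 and MT-ND6), 1 in YSCCC (MT-CO1) and 0 in HuCCT1, beside the shares of all genes given above. These counts moved with the pairs left in. In KKU-100 they were 5, 11 and 4 of 13 without replicate 1, 2 or 3, against 16.1%, 18.2% and 14.1% of all genes. In YSCCC they were 2, 1 and 4 of 13 in the same order, against 11.5%, 11.4% and 24.4%. In HuCCT1, 4 of 13 lay wholly above shControl without replicate 1 (13.8% of genes), and without replicate 2, 0 did while 2 lay wholly below it (11.8%).

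**Figure D4:**
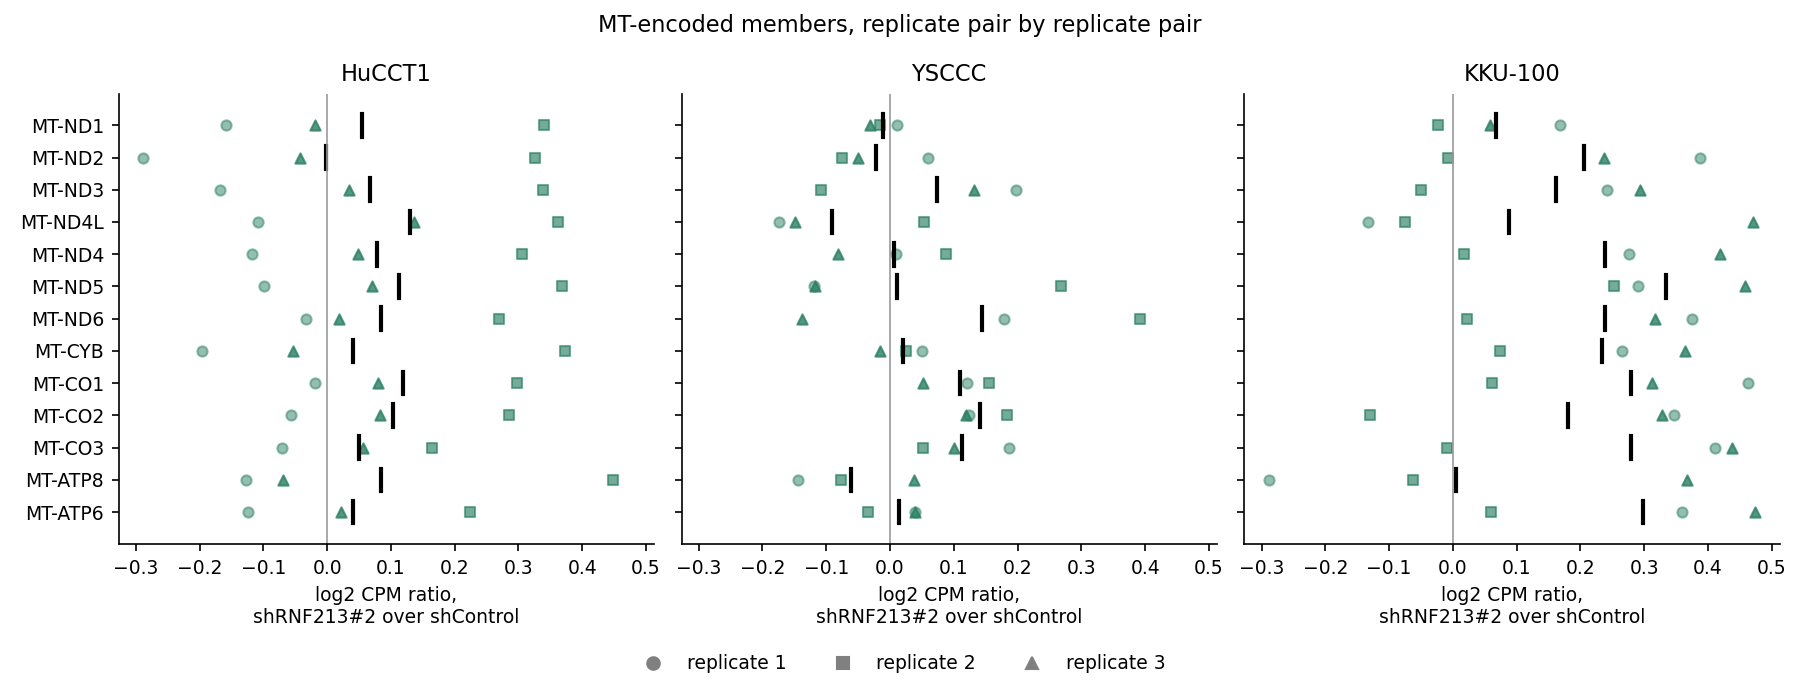
Log2 ratio of shRNF213#2 over shControl CPM (horizontal axes) for each of the 13 mitochondrial members (vertical axis) in each replicate pair (points, shaped by replicate number), in a panel per line; black bars are means over the 3 pairs. HuCCT1 replicate 2 and KKU-100 replicates 1 and 3 hold most of the high ratios, the highest being 0.47 in MT-ATP6 of KKU-100 replicate 3.

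The ratio of the mitochondrial to the nuclear sum was higher with shRNF213#2 in every pair of KKU-100 and in 1 of 3 pairs of HuCCT1 and YSCCC. It was 3.02, 2.67 and 2.99 in shRNF213#2 of KKU-100, against 2.55, 2.37 and 2.82 in shControl, so the arms overlapped. On the log2 scale the pairs differed by 0.17 on average (SD 0.08, n = 3 pairs). In HuCCT1 the difference was -0.06 (SD 0.15) and in YSCCC -0.08 (SD 0.10), also with overlapping arms. No test was run on these sums.

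Genes that work with the respiratory chain gave few calls, all of them with the block, where 0.14% of all genes were called in HuCCT1, 8.25% in YSCCC, 0.443% in KKU-100 and 2.9% over the mean. Of 48 assembly factors tested in YSCCC 1 was called, a share below that of all genes. It was SCO1, a copper carrier for complex IV, which rose (log2 0.45, edgeR adjusted p = 0.0227). Over the mean of the lines NDUFAF7 rose (log2 0.31, adjusted p = 0.0236) and TMEM126B fell by 0.37 (adjusted p = 0.0157); both take part in complex I assembly. Of 14 regulators of mitochondrial biogenesis, 2 rose in YSCCC, namely PPARGC1A, the coactivator PGC-1 alpha (log2 0.52, adjusted p = 0.0223), and GABPA, an ETS-family factor (log2 0.41, adjusted p = 0.0304). Of 77 mitochondrial ribosome genes and 27 import genes tested, 0 were called in any line. For the effect in YSCCC minus KKU-100, where 2.63% of all genes were called, 2 of 77 mitochondrial ribosome genes were called with the block, MRPS6 (log2 0.76, adjusted p = 0.0271) and MRPL13 (0.60, adjusted p = 0.0248), as was MTERF3, which takes part in mitochondrial transcription and ribosome assembly (0.73, adjusted p = 0.0324). In KKU-100, where nuclear members were least shifted, 19 of 77 mitochondrial ribosome genes had positive values (median -0.11), 16 of 49 assembly factors (median -0.07) and 16 of 19 tricarboxylic acid cycle genes (median 0.20), all without the block. PC, pyruvate carboxylase, rose there (log2 0.84, adjusted p = 0.0462, with the block). PC (log2 0.31, adjusted p = 0.0262) and SUCLG2, a subunit of succinyl-CoA ligase (log2 0.22, adjusted p = 0.0393), were the 2 of 19 tricarboxylic acid cycle genes called over the mean of the lines. HK2, a first-step enzyme of glycolysis, fell by 0.41 in YSCCC (adjusted p = 0.0122), where LDHB, a lactate dehydrogenase subunit, rose (log2 0.40, adjusted p = 0.0172). In HuCCT1, ENO2, a glycolytic enolase, rose (log2 0.68, adjusted p = 0.0232). Of the mitochondrial stress response list, PHGDH, the first enzyme of serine synthesis, rose in YSCCC (log2 0.80, adjusted p = 0.0049), and DDIT3, the stress factor CHOP, fell by 0.40 over the mean of the lines (adjusted p = 0.0399). The calls named from the glycolysis and stress lists are single genes and not a result about those lists.

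Levels between genes are given as deposited TPM, which is scaled by length, as the median over the 6 libraries of a line. By the mean over all 18 libraries, the highest nuclear member of complex I was NDUFS5, with medians of 406 TPM in HuCCT1, 477 in YSCCC and 385 in KKU-100. The highest of complex II was SDHB (174, 256 and 123 TPM in the same order), of complex III UQCRH (414, 604 and 429 TPM), of complex IV COX6A1 (577, 666 and 542 TPM) and of complex V the catalytic subunit ATP5F1B (772, 1034 and 954 TPM). Within single lines others led, namely SDHD in HuCCT1 (218 TPM), COX8A in HuCCT1 (825 TPM) and COX7C in KKU-100 (551 TPM). Mitochondrial messages were far higher. In shControl MT-CO1 averaged 8950 TPM in HuCCT1, 4716 in YSCCC and 6871 in KKU-100, and MT-ND4 7198, 6277 and 4682 TPM. MT-CO1 took 14.5 to 27.4% of a library's mitochondrial counts, MT-ND4 15.1 to 19.4% and MT-ATP8 0.15 to 0.264%.

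Several complex IV subunits have a second form that is known from muscle, lung or testis. COX4I2 and COX6A2 had 0 or 1 count in every library, COX8C at most 7, and the median TPM of COX7A1 was 0.39 in HuCCT1, 0.86 in YSCCC and 0.20 in KKU-100, against 188, 433 and 191 TPM of COX7A2. COX6B2, the testis form of COX6B1, had 6.35 TPM in HuCCT1, 2.45 in YSCCC and 0.30 in KKU-100. The exception was COX7B2 (ENSG00000170516, chr4:46734827-46909245, minus strand), a form of COX7B described as testis-enriched. It had a median of 112 TPM in YSCCC, beside 171 TPM of COX7B, and 0 in HuCCT1 and 0.50 TPM in KKU-100. In YSCCC it had 33.9, 27.1 and 16.6 CPM in shRNF213#2, against 30.7, 30.6 and 20.0 CPM in shControl, with overlapping arms. HuCCT1 held 0 counts in all 6 libraries. With a floor of 3 counts over the group, shControl libraries of YSCCC were at least 635-fold higher than those of HuCCT1, and shRNF213#2 libraries at least 598-fold. NDUFA4L2, the hypoxia-linked form of NDUFA4, varied widely between libraries of 1 group. In KKU-100 it had 11.4, 7.08 and 16.2 CPM in shRNF213#2, against 2.74, 21.3 and 2.90 CPM in shControl, where shControl replicate 2 was the highest library of all 6.

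Members also differed between lines without the hairpin against RNF213, in a smaller share than all genes. Tested were 83 nuclear, 13 mitochondrial and 3 non-coding members. In the 9 shControl libraries the edgeR test called 52 members for HuCCT1 minus YSCCC (58.4% of all 18010 genes), 40 for HuCCT1 minus KKU-100 (57.4%) and 42 for YSCCC minus KKU-100 (60.7%). The 3 comparisons share libraries, and medium differs with KKU-100. HuCCT1 was higher than YSCCC in 28 of 83 nuclear members (28.1% of all genes) and lower in 15 (30.2%). It was higher than KKU-100 in 21 (30.1% of genes) and lower in 11 (27.3%). YSCCC was higher than KKU-100 in 20 (32.9% of genes) and lower in 17 (27.9%). Of the mitochondrial members HuCCT1 was higher in 8 of 13 against either line and lower in 0, and YSCCC was higher than KKU-100 in 3 and lower in 2.

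MT-CO1 averaged 5629 ± 631 CPM in HuCCT1, 2759 ± 61.6 CPM in YSCCC and 4475 ± 403 CPM in KKU-100 (SD, n = 3 each, shControl). HuCCT1 and KKU-100 did not differ beyond the test (adjusted p = 0.117), while HuCCT1 exceeded YSCCC by 1.06 on the log2 scale (edgeR adjusted p = 0.000464). YSCCC was lower than KKU-100 (-0.72, adjusted p = 0.00424), whereas it was higher in MT-ND5 (0.66, adjusted p = 0.00997) and MT-ND6 (0.69, adjusted p = 0.00229). The order of lines was thus not the same for every mitochondrial message.

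Among nuclear members the clearest HuCCT1 difference lay in NDUFAB1, the mitochondrial acyl carrier protein that is also a complex I subunit. It had 24.6, 32.6 and 24.3 CPM in shControl of HuCCT1, 86.0, 83.4 and 81.8 CPM in YSCCC, and 84.0, 75.9 and 82.8 CPM in KKU-100. HuCCT1 was lower than both (log2 -1.59 and -1.57), which were close to each other. In the other direction ATP5F1D, the delta subunit of the ATP synthase, averaged 109 ± 5.98 CPM in HuCCT1, 39.8 ± 7.66 CPM in YSCCC and 36.3 ± 4.75 CPM in KKU-100 (SD, n = 3 each; log2 1.49 against YSCCC and 1.60 against KKU-100). NDUFB8, a complex I subunit, averaged 55.5 ± 6.04, 23.7 ± 3.25 and 22.9 ± 3.29 CPM in the same order of lines (log2 1.26 and 1.28). All 4 complex II genes were higher in YSCCC than in KKU-100. SDHC, a membrane anchor, averaged 99.3 ± 11.8 CPM in HuCCT1, 163 ± 8.18 CPM in YSCCC and 76.1 ± 9.72 CPM in KKU-100, and SDHA, the flavoprotein, 199 ± 14.6, 125 ± 11.8 and 88.0 ± 15.98 CPM. KKU-100 was highest in UQCRFS1, the Rieske iron-sulphur protein of complex III, with 173 ± 12.1 CPM, against 95.2 ± 3.15 CPM in HuCCT1 and 86.3 ± 3.68 CPM in YSCCC. KKU-100 was lowest in ATP5IF1, at 33.3 ± 5.09 CPM, against 107 ± 7.76 CPM in HuCCT1 and 72.7 ± 10.1 CPM in YSCCC.

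**Figure D5:**
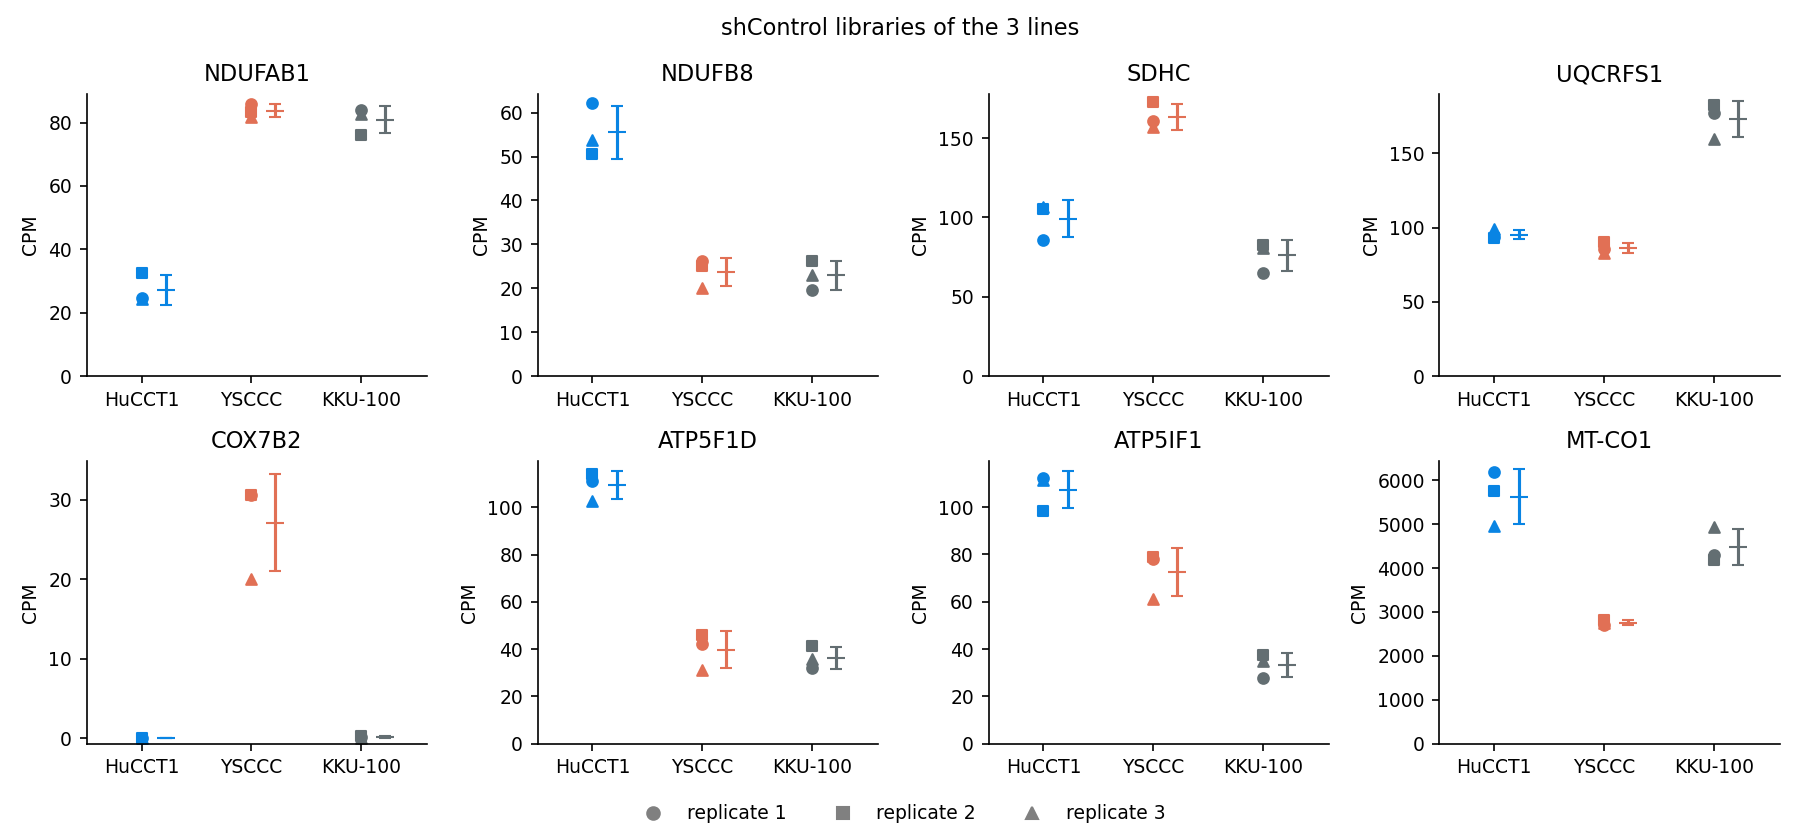
CPM of members that differ between lines in the 3 shControl libraries of HuCCT1, YSCCC and KKU-100 (points, linear axes; bars give the mean ± SD of each line). NDUFAB1 lies at 24.3 to 32.6 CPM in HuCCT1 and at 75.9 CPM or more in the other lines, and UQCRFS1 is highest in KKU-100.

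Some members cannot be counted cleanly. Of 88 nuclear members, 40 overlap another annotated gene, whereas COX6B1, NDUFB5 and SDHD overlap none. ATP5ME, a small ATP synthase subunit that overlaps MYL5, held 48 to 169 counts a library and 0.51 counts per TPM, against a median of 9.04. UQCRHL and ATP5MGL are near-identical copies of UQCRH and ATP5MG, so their values are uncertain. The members that did not pass the filter on low counts were ATP5MGL, COX4I2, COX6A2 and COX8C in every line, COX7A1 and COX7B2 in HuCCT1 and KKU-100, and COX6B2 in KKU-100. The 3 non-coding members had 0 calls with the hairpin in any line, and NDUFA6-DT had 2.05, 2.72 and 2.58 CPM in shRNF213#2 of KKU-100, against 3.57, 3.31 and 3.43 CPM in shControl.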

How the data were processed

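The submitters deposited 1 table per library with raw counts per gene, per the labels, and the authors' TPM (a length-scaled transcript share) beside them. The submitters' processing notes name HTSeq 0.6.1p1, STAR 2.5.1b, StringTie 2.1.6, DESeq2 1.34.0, FastQC 0.11.9, Picard 1.139 and the build GRCh38, with no settings such as strandedness. RNA was taken up in TRIzol and cleaned on RNeasy columns, and libraries followed the TruSeq mRNA protocol, per the labels, which selects polyadenylated RNA.

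The deposited counts were tested with the edgeR 4.0.16 quasi-likelihood F test in R 4.3.3, two-sided, with TMM scaling, filterByExpr (minimum count 10, minimum total 15) and Benjamini-Hochberg adjustment over all genes tested at 0.05. Each line was fitted on its 6 libraries, the mean over lines and line differences on all 18, and levels between lines on the 9 shControl libraries. CPM are TMM-scaled counts, and TPM served only for levels between genes. The replicate number as a block was the alternative fit. Deviations from group means correlated between same-numbered libraries of the arms at r = 0.717 to 0.79 in HuCCT1, 0.724 to 0.902 in YSCCC and 0.396 to 0.73 in KKU-100, above 0.1 in all 9 pairs, so the numbers were taken to pair the libraries. Between arms, differently numbered libraries also passed 0.1 for YSCCC replicates 1 and 2 (r = 0.656 and 0.516). In KKU-100, shRNF213#2 replicate 2 with shControl replicate 3 did so too (r = 0.128). The remaining differently numbered libraries had negative r. Other alternatives were RLE factors, scaling without mitochondrial genes, no count filter, DESeq2 1.42.0, limma-voom 3.58.1 and leaving out libraries. The scripts were tested on simulated counts.

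Members and gene lists were chosen with earlier results of these data known. Named are the mitochondrial members, called nuclear members, those with the lowest p where under 5 were called, the highest member by TPM per complex, members that differ most between lines, second forms of subunits, and up to 3 called genes per list and direction. Gene symbols and positions are those of the deposited tables, and promoter windows come from RefSeq on GRCh38.p14. Results on some genes are not reported here.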

Additional observations from a re-analysis of the deposited data

How the results depend on the processing

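Counts of called members moved with the pairing and the tool. In HuCCT1, where edgeR called 0 without the block, DESeq2 called 1 (31 of all 15747 genes) and DESeq2 with the replicate block 2 (116 genes). In YSCCC, where edgeR called 0, the replicate block gave 5 (1397 of all 16932 genes), DESeq2 1 (97 genes) and DESeq2 with the block 5 (1231 genes). For the effect in YSCCC minus KKU-100, DESeq2 with the block called 3 (1060 of all 19143 genes) against 0. Over the mean of the lines the count of 1 (28 of all 19143 genes) became 4 with the block (555 genes), 4 in DESeq2 (125) and 7 in DESeq2 with the block (1054). It became 0 with all genes that had at least 1 count (21 genes called). This last fit tests more genes, and the cause of the other shifts was not tested. The count of all genes called moved too, so a higher count of members is not by itself a result about them. Leaving out 1 library or pair gave 0 to 3 over the mean and 3 to 10 with the block. With the block it gave 0 to 2 in HuCCT1, 2 to 7 in YSCCC, 0 to 1 in KKU-100 and 0 to 1 for the effects in HuCCT1 minus KKU-100 and YSCCC minus KKU-100. Between lines it gave 37 to 52 (HuCCT1 minus YSCCC), 35 to 52 (HuCCT1 minus KKU-100) and 33 to 43 (YSCCC minus KKU-100). These ranges are given without the shares of all genes and are not a result about the members. The mitochondrial minus nuclear difference ranged over pairs left out from -0.14 to 0.01 in HuCCT1, -0.13 to -0.03 in YSCCC and 0.13 to 0.21 in KKU-100. When 1 pair was left out, alternatives chosen after seeing the data, nuclear members wholly above shControl numbered 44 to 55 in HuCCT1, 11 to 41 in YSCCC and 5 to 30 in KKU-100, and mitochondrial members 0 to 4, 1 to 4 and 4 to 11. NDUFS1 in HuCCT1 (-0.03, log2) ranged from -0.12 to 0.0403 when 1 library was left out, turning positive without shRNF213#2 replicate 1 or 2 or shControl replicate 3, and was 0.0144 with the block without replicate 2. Of named genes' values under full-sample alternatives, 429 kept direction and side of the threshold, 30 passed it newly and 3 lost it. The other counts under full-sample alternatives, 66 values, moved by less than 1.5 times or within the spread of pairs. They include counts of 0 that stayed 0. The mitochondrial minus nuclear differences with RLE factors are also among them and equal the main values by construction. The standard error of the COX4I1 fold change with the block was 0.08 in HuCCT1 and 0.10 in YSCCC (log2). The medians of the nuclear members with the block were 0.16 in HuCCT1 and 0.10 in YSCCC. The error of 1 gene does not measure the uncertainty of such a median.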
